A study of Homo sapiens with 2 samples.

Results

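Enzymes and carriers of the urea cycle, amino acid breakdown and methionine metabolism were examined in liver progenitors made from CyT49, a human embryonic stem cell line. The set holds 43 genes taken by symbol from a table of 57158 genes, and all 43 had a value. The study collected 2 libraries of 1 group, titled as replicates, at day 8 of differentiation. Cells at the definitive endoderm stage (day 2), the germ layer that gives rise to liver, had been fed BMP4 at 50 ng/ml and FGF2 at 10 ng/ml for 6 days in suspension, in medium with 0.2% serum (FBS), and both libraries share all of this. No untreated, earlier or adult sample was analysed here, so the data give levels within this 1 group and no change between conditions.

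The liver handles most of the nitrogen released from dietary protein. Its urea cycle joins ammonia and aspartate nitrogen into urea across mitochondria and cytosol, and its catabolic enzymes open the rings and chains of tyrosine, tryptophan, histidine and serine. Methionine is turned into S-adenosylmethionine, the cell's methyl donor, and the homocysteine left over is either methylated back or passed on to cysteine. Several of these steps have a form typical of mature liver and another that growing or fetal tissues use.

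Levels are in RPKM, a read number divided by the length of the gene and by the depth of the library, so those of different genes can be set side by side. Every value under 0.5 RPKM is listed as 0.1, and such a gene is called under the floor. The libraries had 25182071 and 25263820 reads in their normalization, which makes 1 RPKM on a gene of 2000 bp worth 50.4 reads in library 1. They differed by 1.09 times the variance of counting alone over 996 genes with 1 exon, so they were treated as 1 sample. The labels do not say whether they came from separate cultures, so their difference may be technical error only. The cells carried the markers of their label, with 9 of 9 liver progenitor markers at 1 RPKM or more and ALB lowest at 6.84 and 6.53 RPKM, whereas 8 of 8 mature hepatocyte markers were under the floor. None of 5 kidney proximal tubule markers, a cell type that also uses many of these enzymes, reached 1 RPKM in both libraries. SLC5A2 at 0.952 and 1.02 RPKM and SLC22A6 at 0.940 and 0.930 RPKM were close to it. Of 5 intestinal markers 1 did (CDX2), as did 1 of 4 endothelial and 2 of 5 mesenchymal markers, the highest being COL1A1 at 8.29 RPKM. The summed level of the kidney list was 2.19 and 2.25 RPKM and that of the intestinal list 2.53 and 2.51 RPKM. That of the mesenchymal list was 12.0 and 12.2 RPKM. The part of such cells in the levels below was not tested.

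The set was expressed unevenly. In both libraries 29 of 43 members (67.4%) reached 1 RPKM, beside 59.8% of 19344 protein-coding genes. Another 12 members (27.9%) were under the floor in both libraries, beside 33.8% of protein-coding genes, and OTC and BHMT lay in between. At 10 RPKM or more stood 14 members (32.6%), beside 20.2% of protein-coding genes. The median member level was 3.74 RPKM and the median protein-coding level 2.42 RPKM. The members' shares at 1 RPKM and under the floor thus lay near those of all protein-coding genes, and their share at 10 RPKM was higher. These shares are descriptions with no test. In such bulk libraries fewer cells that express a gene and less RNA per cell cannot be told apart.

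**Figure D1:**
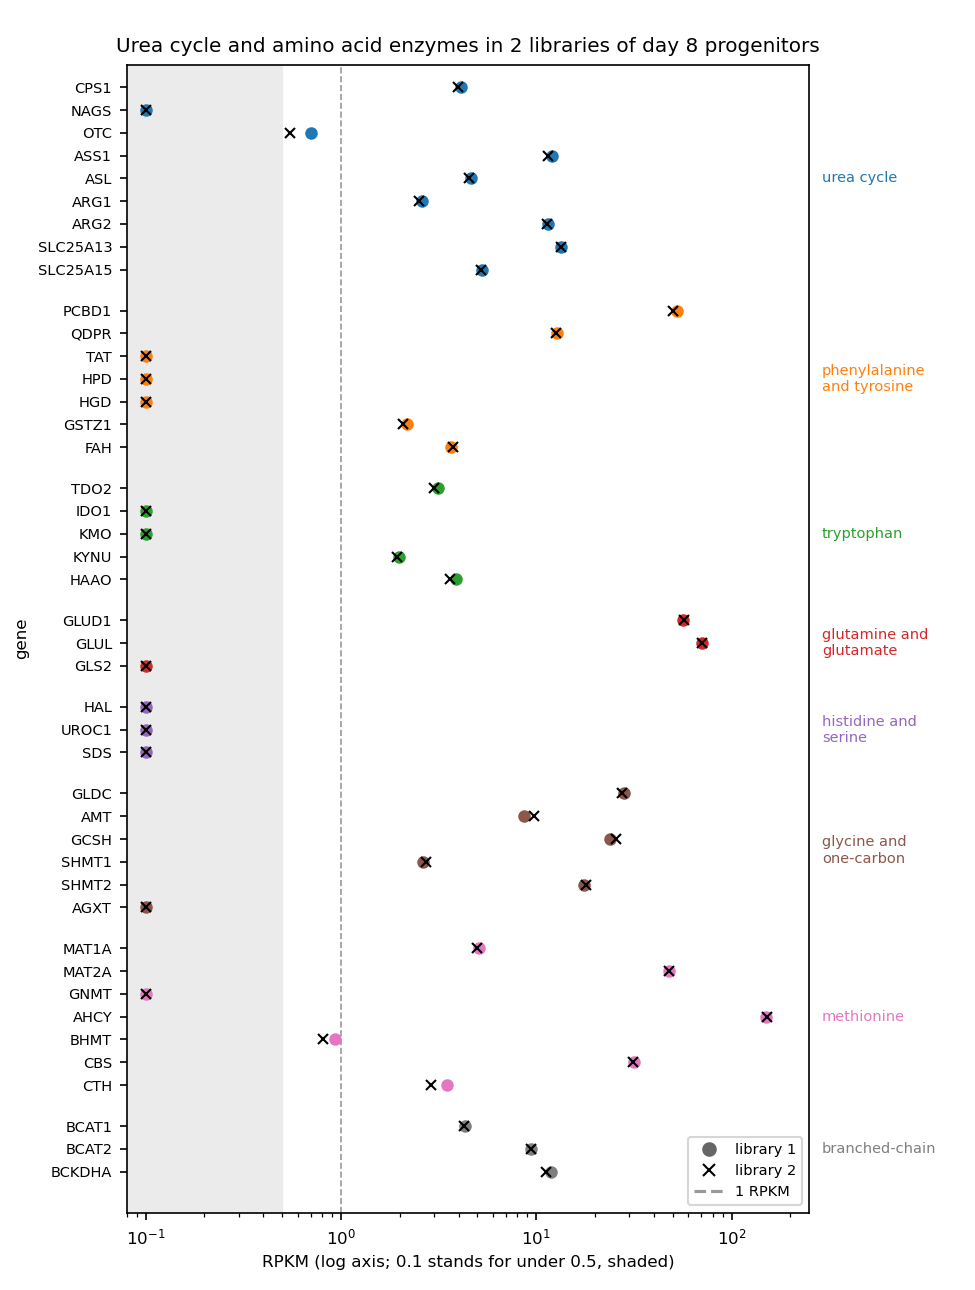
Level of each of the 43 genes in library 1 (dots) and library 2 (crosses), in RPKM on a log axis, grouped by pathway, with values under 0.5 RPKM drawn at 0.1 in the shaded band. The marks of both libraries nearly coincide for most genes, AHCY is farthest right at 150 and 152 RPKM, and 12 genes lie in the shaded band in both libraries.

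Of the 12 members under the floor, 11 were among those listed here as mainly hepatic. Of all members, 21 were listed as mainly hepatic, some of them shared with kidney or gut, and 22 as not mainly hepatic. This division was made from general knowledge with earlier results of these data known, so the counts by it are description only. Some genes could be placed otherwise. No other division was tried, and moving genes between the groups would change these counts. Of the 21 mainly hepatic members, 8 (38.1%) reached 1 RPKM in both libraries, 11 (52.4%) were under the floor and none reached 10 RPKM. Of the other 22, 21 (95.5%) reached 1 RPKM, 14 (63.6%) reached 10 RPKM and IDO1 alone was under the floor. Over all protein-coding genes 59.8% reached 1 RPKM, 33.8% were under the floor and 20.2% reached 10 RPKM. The median was under the floor for the mainly hepatic members and 12.2 RPKM for the others.

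Sequence before the start of each gene is shown for the 2 isozyme pairs in which the liver form and the common form could be set side by side. MAT1A and MAT2A make S-adenosylmethionine in adult liver and in most other cells, and ARG1 and ARG2 are the cytosolic arginase of liver and the mitochondrial arginase of other tissues. The runs are the 250 bases before the RefSeq start of each gene (GRCh38.p14 table), 5′ to 3′ on the gene's strand, each found by exact match at 1 place in GRCh37. Capitals mark CpG dinucleotides. MAT1A lies at chr10:82049415-82049664 on the minus strand, MAT2A at chr2:85766041-85766290 on the plus strand, ARG1 at chr6:131894116-131894365 on the plus strand and ARG2 at chr14:68086387-68086636 on the plus strand.
MAT1A: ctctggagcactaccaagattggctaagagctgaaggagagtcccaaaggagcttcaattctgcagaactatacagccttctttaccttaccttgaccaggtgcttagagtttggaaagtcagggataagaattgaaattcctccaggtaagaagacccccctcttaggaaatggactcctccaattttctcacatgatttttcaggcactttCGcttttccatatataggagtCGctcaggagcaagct
MAT2A: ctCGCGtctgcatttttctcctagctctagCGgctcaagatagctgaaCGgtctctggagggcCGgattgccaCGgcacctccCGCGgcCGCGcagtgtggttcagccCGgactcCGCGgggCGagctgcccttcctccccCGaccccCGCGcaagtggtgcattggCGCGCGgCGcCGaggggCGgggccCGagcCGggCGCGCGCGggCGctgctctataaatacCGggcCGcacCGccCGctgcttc
ARG1: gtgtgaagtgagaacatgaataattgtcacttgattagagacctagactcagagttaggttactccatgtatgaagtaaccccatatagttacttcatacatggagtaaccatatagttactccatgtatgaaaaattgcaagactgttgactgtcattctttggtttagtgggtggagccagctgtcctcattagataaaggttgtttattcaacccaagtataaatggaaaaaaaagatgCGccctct
ARG2: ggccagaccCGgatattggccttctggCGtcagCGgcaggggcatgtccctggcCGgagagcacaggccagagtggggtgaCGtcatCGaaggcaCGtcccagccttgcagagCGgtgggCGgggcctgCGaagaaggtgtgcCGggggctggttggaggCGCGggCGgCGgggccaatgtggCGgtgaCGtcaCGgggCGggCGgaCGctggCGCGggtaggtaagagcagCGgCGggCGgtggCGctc

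In these 2 pairs the liver forms had few CpG and the common forms many. The MAT1A run held 2 CpG and the MAT2A run 34. The ARG1 run held 1 and the ARG2 run 27. In the same pairs the liver form had the lower RNA level, as described under arginase and methionine below.

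Among urea cycle genes, the steps were present at unequal levels. CPS1, which makes carbamoyl phosphate from ammonia and is the entry enzyme of the cycle, stood at 4.13 and 3.99 RPKM (ENSG00000021826.10, chromosome 2 from 211342406 to 211543831 on GRCh37). NAGS, which makes the activator that CPS1 needs, was under the floor in both libraries. OTC, which adds ornithine to carbamoyl phosphate, stood at 0.701 and 0.549 RPKM, near the floor. An unnamed protein-coding locus on the same strand, which averaged 7.35 RPKM, covers all 68861 bases of the OTC span. Whether reads given to that locus came from OTC was not tested, so the OTC level is uncertain. As listed, NAGS and OTC were the 2 lowest of the 9 urea cycle members, and both act in mitochondria. The other mitochondrial members, CPS1, SLC25A15, ARG2 and SLC25A13, all reached 1 RPKM, and SLC25A13 was the highest of the 9 at 13.4 RPKM on average.

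All 3 cytosolic enzymes were detected. ASS1, which joins citrulline to aspartate, stood at 12.1 and 11.4 RPKM (ENSG00000130707.13, chromosome 9 from 133320348 to 133376661). ASL, which splits off fumarate and leaves arginine, stood at 4.63 and 4.52 RPKM. ARG1, which releases urea, stood at 2.60 and 2.52 RPKM. ARG2, the mitochondrial arginase, stood at 11.5 and 11.3 RPKM, so that the ratio of ARG1 to ARG2 was 0.226 in library 1 and 0.223 in library 2. The carriers that feed the cycle were both detected, with SLC25A13, which exports aspartate from mitochondria, at 13.3 and 13.4 RPKM and SLC25A15, which brings ornithine in, at 5.27 and 5.23 RPKM. In all, 7 of 9 urea cycle members (77.8%) reached 1 RPKM, beside 59.8% of protein-coding genes. At 10 RPKM or more stood 3 (33.3%), namely ASS1, ARG2 and SLC25A13, beside 20.2% of protein-coding genes.

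Other genes of arginine, ornithine and proline metabolism, from a list of 69 further pathway genes, were mostly higher than the cycle itself. ODC1, which turns ornithine into putrescine for polyamines, stood at 130 and 131 RPKM. The proline-making enzymes PYCR1 and ALDH18A1 averaged 59.6 and 45.9 RPKM. Of these 9 genes 8 (88.9%) reached 1 RPKM, beside 59.8% of protein-coding genes. Their median was 15.9 RPKM, beside 4.57 RPKM for the 9 urea cycle members. PRODH, which breaks proline down, averaged 4.26 RPKM, and the second ornithine carrier SLC25A2 was under the floor.

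Of the 7 phenylalanine and tyrosine members, 4 were detected (57.1%), near the 59.8% of protein-coding genes. The other 3 were under the floor (42.9%), beside 33.8% of protein-coding genes. PCBD1, which recycles the pterin cofactor used by aromatic amino acid hydroxylases, stood at 52.4 and 50.1 RPKM. QDPR, which regenerates the same cofactor, stood at 12.7 and 12.6 RPKM. TAT, HPD and HGD, the first 3 enzymes of tyrosine breakdown, were under the floor in both libraries. GSTZ1, which isomerizes maleylacetoacetate, stood at 2.18 and 2.08 RPKM, and FAH, the last enzyme, at 3.66 and 3.73 RPKM. The 4 further genes of phenylalanine and pterin metabolism all reached 1 RPKM, with SPR and GCH1, enzymes of cofactor synthesis, averaging 8.68 and 7.47 RPKM.

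Tryptophan breakdown also showed a gap. TDO2, the hepatic enzyme that opens the indole ring, stood at 3.14 and 2.99 RPKM, whereas IDO1, which does the same in immune and other cells, was under the floor in both libraries. KMO, which hydroxylates kynurenine, was under the floor too. KYNU, which cleaves kynurenine products, stood at 1.98 and 1.93 RPKM, the lowest level among the 29 members at 1 RPKM or more. HAAO, which makes the precursor of quinolinate, stood at 3.87 and 3.61 RPKM. QPRT, which takes quinolinate into NAD synthesis, was far higher than any of the 5 members, at 58.9 RPKM in both libraries. AADAT and AFMID averaged 7.25 and 6.80 RPKM, and IDO2, ACMSD and TPH1 were under the floor.

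Glutamine and glutamate enzymes were among the most abundant of the set. GLUL, glutamine synthetase, which marks the cells around the central vein in adult liver, stood at 71.0 and 70.7 RPKM and above 98.0% of protein-coding genes. GLUD1, which converts glutamate to alpha-ketoglutarate and ammonia, and back, in mitochondria, stood at 56.8 and 56.9 RPKM. GLS2, the glutaminase of periportal liver, was under the floor in both libraries. The aminotransferases GOT2, GPT2 and GOT1 averaged 33.1, 22.2 and 12.6 RPKM. GPT, the cytosolic alanine aminotransferase of adult liver, was listed at 0.604 RPKM in library 1 and under the floor in library 2.

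None of the 3 members of histidine and serine breakdown reached the floor, whereas 33.8% of protein-coding genes were under it. HAL and UROC1, the first enzymes of histidine breakdown, and SDS, which deaminates serine to pyruvate, were under 0.5 RPKM in both libraries. AMDHD1, the next histidine enzyme, stood at 0.604 and 0.774 RPKM, whereas FTCD, the last, stood at 15.8 and 15.5 RPKM. Serine synthesis was present throughout, with PHGDH, its entry enzyme, at 40.0 and 39.0 RPKM, PSAT1 at 25.1 and 24.9 RPKM and PSPH at 13.1 and 13.0 RPKM. SDSL, a relative of SDS, stood at 1.01 and 0.996 RPKM.

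Of the glycine and one-carbon members, 5 of 6 were detected (83.3%), beside 59.8% of protein-coding genes. The glycine cleavage system, which releases carbon dioxide and ammonia from glycine in mitochondria, had GLDC at 28.3 and 27.4 RPKM, GCSH at 23.9 and 25.7 RPKM and AMT at 8.67 and 9.74 RPKM. GLDC is the decarboxylase, GCSH the lipoyl carrier and AMT the aminomethyltransferase. SHMT1, the cytosolic enzyme that moves carbon from serine to folate, stood at 2.62 and 2.72 RPKM, against 17.5 and 18.0 RPKM for the mitochondrial SHMT2, a ratio of 0.149 in library 1 and 0.151 in library 2. AGXT, which clears glyoxylate in liver peroxisomes, was under the floor. Among the 12 further genes of this pathway 9 reached 1 RPKM, led by the creatine enzyme GAMT at 70.0 and the thymidylate enzyme TYMS at 29.2 RPKM, with DMGDH and ALDH1L2 under the floor.

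Methionine metabolism held both the highest member and marked differences between isozymes. AHCY, which clears S-adenosylhomocysteine, stood at 150 and 152 RPKM, above 99.1% of protein-coding genes (ENSG00000101444.7, chromosome 20 from 32868074 to 32899608). MAT1A stood at 5.08 and 4.98 RPKM, against 47.7 and 48.0 RPKM for MAT2A, so the ratio of MAT1A to MAT2A was 0.107 and 0.104. The runs printed above belong to these genes, with 2 CpG before MAT1A and 34 before MAT2A. GNMT, an abundant methyltransferase of adult liver that consumes surplus S-adenosylmethionine, was under the floor in both libraries.

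Homocysteine can leave by 2 ways. BHMT, which methylates it with betaine in liver and kidney, stood at 0.934 and 0.807 RPKM, and its relative BHMT2 was under the floor. MTR, the methionine synthase of most cells, stood at 3.23 and 3.46 RPKM. CBS, which commits homocysteine to cysteine, stood at 31.6 and 31.1 RPKM, against 3.23 and 3.46 RPKM for MTR, a ratio of 9.80 in library 1 and 8.99 in library 2. CTH, the following enzyme, stood at 3.49 and 2.90 RPKM. Polyamine genes downstream of S-adenosylmethionine were detected, with SRM at 36.6, AMD1 at 28.9 and SMS at 24.0 RPKM on average. Of the 12 further methionine genes 11 (91.7%) reached 1 RPKM, beside 59.8% of protein-coding genes.

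All 3 branched-chain members were detected, beside 59.8% of protein-coding genes. BCAT1, the cytosolic aminotransferase known from embryonic and tumour cells, stood at 4.33 and 4.26 RPKM. BCAT2, the mitochondrial form, stood at 9.36 and 9.44 RPKM, and the ratio of BCAT1 to BCAT2 was 0.462 and 0.451. BCKDHA, a subunit of the dehydrogenase that commits the ketoacids to breakdown, stood at 11.9 and 11.3 RPKM. The 13 further genes of this pathway all reached 1 RPKM, with HIBADH highest at 22.4 and PPM1K lowest at 2.15 RPKM.

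**Figure D2:**
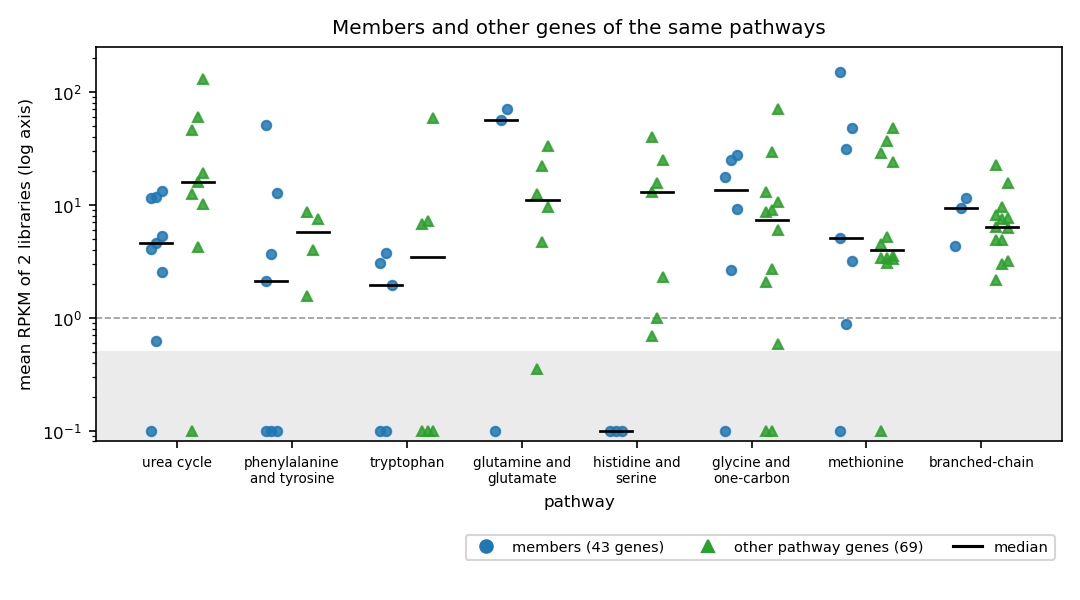
Mean RPKM of both libraries (log axis) for the 43 members (circles) and 69 other genes of the same pathways (triangles), with the median of each group as a bar and values under 0.5 RPKM in the shaded band. The 3 histidine and serine members lie in the shaded band, and every branched-chain gene of either list lies above 1 RPKM.

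Over all 69 further pathway genes, 58 (84.1%) reached 1 RPKM in both libraries and 7 were under the floor, with a median of 7.25 RPKM, beside 59.8% and 2.42 RPKM for protein-coding genes. The list was chosen with earlier results known, and this count has no test. By place in the cell, 11 of 15 mitochondrial and 18 of 27 cytosolic members reached 1 RPKM, with medians of 9.40 and 3.06 RPKM.

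Of 12 pairs of genes from the same or linked pathways, not all of them isozymes, the first gene was the lower in 6. These were ARG1, MAT1A, BCAT1, SHMT1, BHMT and SDS against ARG2, MAT2A, BCAT2, SHMT2, MTR and PHGDH. The order within a pair follows no single rule. The count therefore only sums up the directions listed and says nothing about liver forms as a class. On the log2(RPKM + 1) scale the difference of ARG1 minus ARG2 was -1.80 in library 1 and -1.81 in library 2. For MAT1A minus MAT2A it was -3.00 and -3.03, for BHMT minus MTR -1.13 and -1.30, and for SDS minus PHGDH, with SDS under the floor, -5.22 and -5.18. TDO2 minus IDO1, with IDO1 under the floor, was 1.91 and 1.86 on the same scale, which understates differences of low genes. MAT1A minus GNMT was 2.47 and 2.44 and GLUL minus GLS2 was 6.03 in both libraries, with GNMT and GLS2 under the floor. All 12 pairs had the same direction in both libraries, which is no independent check, since the libraries were treated as 1 sample. In the glycine cleavage system GLDC minus AMT was 1.60 and 1.40, and the ratio of GLDC to GCSH was 1.18 and 1.06. With the RPKM of their pseudogenes added, GLDC minus GCSH turned to -1.14 on the log2(RPKM + 1) scale, against 0.158 for the genes alone. The RPKM of loci of different length were added as listed. The sum is therefore not the level a gene would have if those reads were its own.

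**Figure D3:**
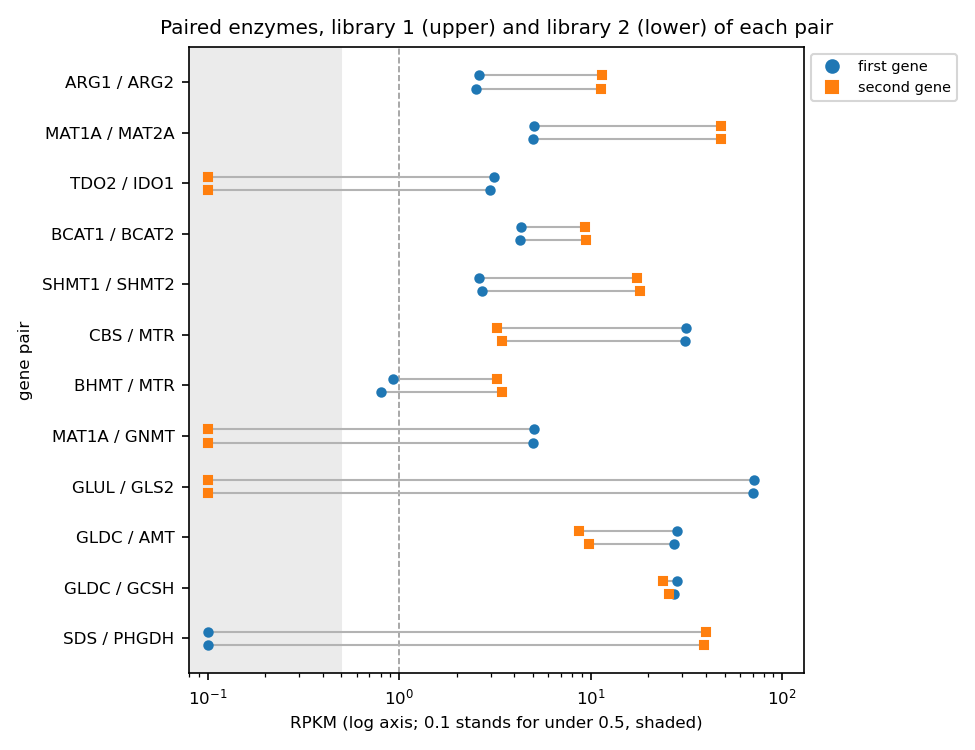
RPKM (log axis) of the first gene (circles) and second gene (squares) of 12 pairs, with library 1 as the upper and library 2 as the lower line of each pair. MAT1A lies near 5 RPKM and MAT2A near 48 RPKM in both libraries, and GLS2, IDO1, GNMT and SDS lie in the shaded band that stands for values under 0.5 RPKM.

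Promoter CpG content played no part in choosing the genes. RefSeq starts were available for 38 members; TAT, HGD, IDO1, SHMT2 and BCAT2 were not matched. CpG observed over expected compares the number of CpG in the 300 bases from 250 before to 50 after the start with the number that their C and G content would give. Its median was 0.298 over 19 mainly hepatic members and 0.743 over the 19 others. A value of 0.6 or more, a common threshold for CpG islands, was reached by 5 of 19 mainly hepatic members (26.3%) and by 17 of 19 others (89.5%), beside 67.1% of all protein-coding genes with a start. All 19 others were at 1 RPKM or more, as were 8 of the 19 mainly hepatic members, so level and this division overlap.

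By level, 19 of 27 members at 1 RPKM or more (70.4%, exact 95% interval 49.8 to 86.2%) reached 0.6. Of the 9 under the floor 2 did, HPD and GNMT (22.2%, interval 2.81 to 60.0%). Among all protein-coding genes with a start, 84.8% of those at 1 RPKM or more and 33.2% of those under the floor reached it. The members thus showed a difference in the same direction as all genes did. Within the mainly hepatic members, 2 of 8 at 1 RPKM or more and 2 of 9 under the floor reached 0.6, and the medians were 0.236 and 0.306. MAT1A, CPS1, ARG1, TDO2 and KYNU were detected with values of 0.174, 0.298, 0.0857, 0.0782 and 0.0805. The intervals cover only the number of genes.

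**Figure D4:**
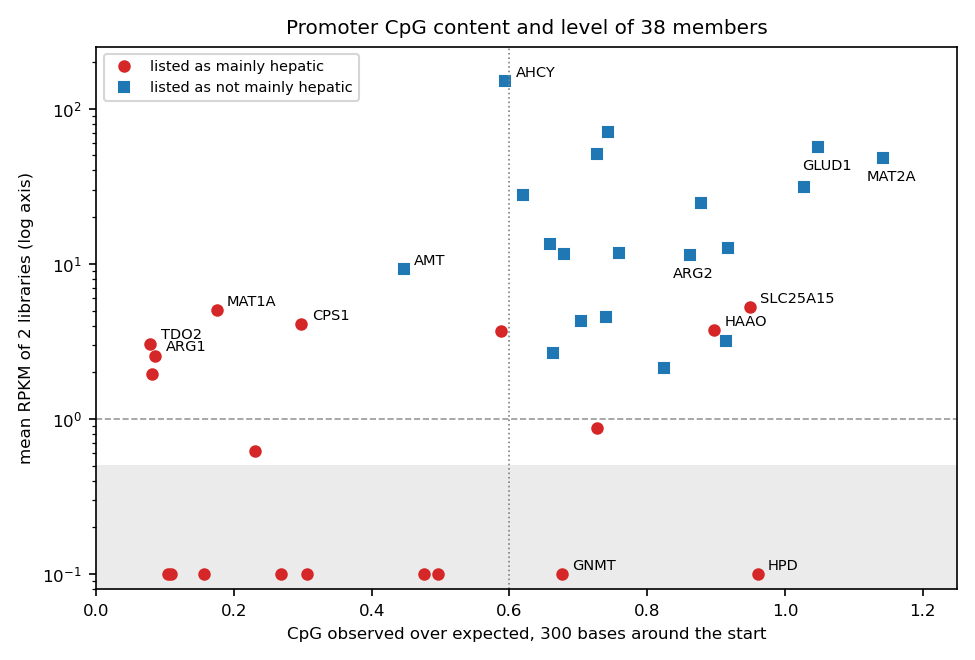
Mean RPKM of both libraries (log axis) against CpG observed over expected in the 300 bases around the RefSeq start, for mainly hepatic (circles) and other (squares) members, with a dotted line at 0.6 and values under 0.5 RPKM in the shaded band. MAT1A, CPS1, ARG1 and TDO2 lie at the left above 1 RPKM, and all genes in the band are circles.

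Letters of known promoter elements were also searched on both strands of the same 300 bases. The TATA box letters TATAAA were found in 7 of 19 mainly hepatic members (36.8%) and in 1 of the 19 others (MAT2A), beside 9.42% of protein-coding genes. ARG1, OTC, BHMT, TDO2, KYNU, KMO and HAL were the 7. The ARG1 and MAT2A runs printed above hold them close to the start, on the printed strand. The letters TGTTTAC, a core bound by FOXA factors, were found for KYNU only, beside 2.58% of protein-coding genes. The letters CAAAGTCCA, which HNF4A binds, were found for HAAO only, beside 0.327% of protein-coding genes. A match is a description of the letters and not a site of binding.

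Copies of some members complicate their levels. The annotation names 48 pseudogenes of 11 members that are in the table. Of these 28 were under the floor in both libraries and 12 averaged 1 RPKM or more. GCSHP5, a processed pseudogene on chromosome 1, stood at 59.0 and 61.8 RPKM, 2.43 times the mean of GCSH itself. GCSHP3 averaged 4.83 RPKM, and GLDCP1 averaged 12.5 RPKM, 0.450 times GLDC. Which of these loci the reads came from was not tested, and the levels of GCSH and GLDC are uncertain to that extent.

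The other copies at 1 RPKM or more were lower than their parents. AHCYP4, GLULP4 and GLULP3 averaged 1.19, 3.25 and 1.31 RPKM, and ASS1P3 and ASS1P13 1.43 and 1.04 RPKM. GLUD1P7, GLUD1P6 and GLUD1P3 averaged 3.31, 2.92 and 1.79 RPKM, with GLUD1P7 at 2.64 and 3.97 RPKM and GLUD1P6 at 2.32 and 3.51 RPKM in the libraries. ASLP1 stood at 1.26 and 2.16 RPKM, 0.374 times ASL. TAT-AS1, the only antisense transcript named after a member, was under the floor.

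**Figure D5:**
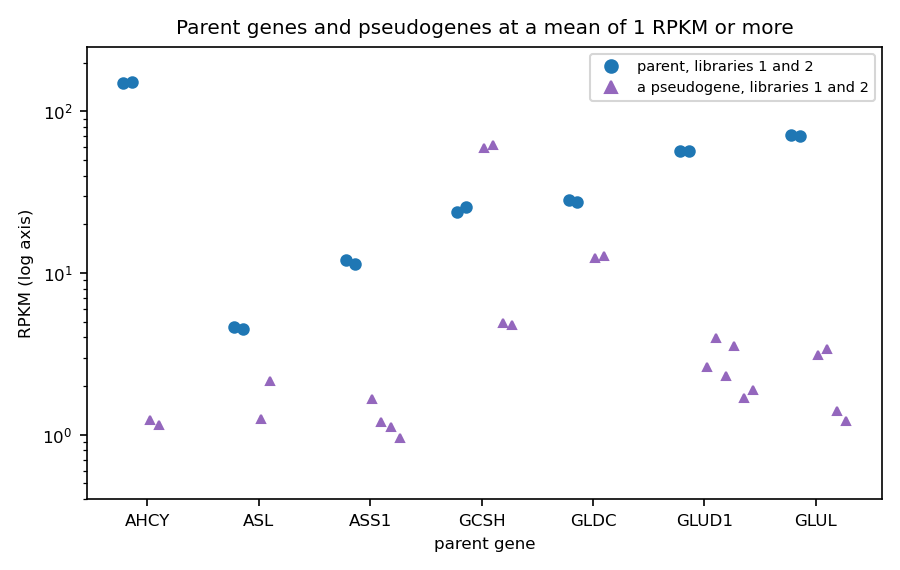
RPKM (log axis) of 7 parent genes (circles) and of their pseudogenes that average 1 RPKM or more (triangles), with libraries 1 and 2 side by side. For GCSH a pseudogene lies above the parent, and for the other 6 parents every pseudogene lies below it.

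Some members also share their span with other genes. For 17 members the span overlapped a gene that averaged 1 RPKM or more, and for 6 of these on the same strand. These 6 were overlapped by protein-coding loci without a symbol over OTC (7.35 RPKM), ASL (8.49), GCSH (6.08) and BCKDHA (18.0), NICN1 over AMT (3.67) and a noncoding gene over AHCY (53.7). The shared stretch was 68861 bases for OTC, its whole span, and 27194 for BCKDHA and 14352 for GCSH, nearly their whole spans. For ASL, AHCY and AMT it was 6937, 906 and 353 bases. The loci over OTC, ASL and BCKDHA were above the members themselves, which averaged 0.625, 4.57 and 11.6 RPKM. How the counting shared reads between them is not given in the sources used here, so the levels of these 6 members are less certain. For the other 11 the overlap was on the opposite strand only, and their levels may be less certain too if counting ignored the strand. Their overlap ranged from 16 bases for GNMT to 10367 bases for ARG1, over whole spans and not exons alone. KMO, GLS2, SDS and GNMT, which are of these 11, were under the floor. Also of the 11 were ARG1, which shares 10367 bases with MED23 at 5.10 RPKM, and ARG2, which shares 4624 bases with VTI1B at 11.9 RPKM.

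Agreement between the libraries was close for this set, as it was over all protein-coding genes. Over the 29 members at 1 RPKM or more the median difference between libraries was 0.0373 on the log2 scale, beside 0.046 over 11575 protein-coding genes. For 4 members (13.8%) it exceeded 0.1, beside 21.7% of protein-coding genes. These were CTH, AMT, GCSH and HAAO, with CTH the largest at 0.27. OTC and BHMT, which lay near the floor, differed by 0.35 and 0.21. The members and the protein-coding genes were not matched for level. Whether a smaller difference is particular to the members was not tested.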

How the data were processed

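Poly(A) RNA libraries that keep the strand, per the labels' protocols, were sequenced from 2 samples of 1 group. The authors deposited 1 table of RPKM values, normalized by them to gene length and reads. Per the series description the libraries were mapped to hg19 and expression was determined with Sailfish; Cufflinks 2.2.0, STAR 2.3.0e and FastQC 0.10.1 stand, with no role, in the submitters' processing notes. The tool that gave the RPKM values, its annotation and its use of the strand were not stated in the labels. No value lay between 0.1 and 0.5, and 39548 and 39542 genes were listed at 0.1.

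Identifiers without version were joined to GENCODE release 44 on GRCh37 (54428 of 57158, 95.2%), which gave symbols, biotypes and positions. Detection meant that neither library was under 1 RPKM. Depth was read from the steps between values of genes with 1 exon, of which 81.4% and 81.3% under 500 reads were whole within 0.02 of a read, a procedure tested on simulated data. Genes with several exons gave no whole reads, so no count model was used. Since reads lack molecular identifiers, counting error is a lower bound. Promoters are from RefSeq (GRCh38.p14), the first start listed per gene; protein features were planned and not analysed here.

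The members, the division into hepatic and other genes, the pairs and the 69 further genes were chosen with earlier results of these data known. Named are all members, up to 3 highest and 2 lowest further genes of each pathway, both genes of each pair, copies at a mean of 1 RPKM or more and single cell type markers; PSPH, SMS and the genes that overlap members were named after their values were seen. Some genes that this rule names are not reported here, and a planned pair with one of them was left out, which leaves 12 pairs. With 1 group and members chosen in this way no test was made. Of 51 markers 50 were matched. Calculations used Python 3.11.15 with pandas 2.3.3 and SciPy 1.17.1.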

Additional observations from a re-analysis of the deposited data

How the results depend on the processing

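The number of members detected was 29 in each library alone, with the mean of the libraries, and with identifiers of a symbol summed, and 31 at a limit of 0.5 RPKM. At a limit of 5 RPKM it was 17, or 39.5% of members, beside 35.4% of protein-coding genes, and of the mainly hepatic members only SLC25A15 remained. Over all genes of any biotype the detected share was 26.3%, and over protein-coding genes with a RefSeq match 60.1%. The median member level was 3.73 to 3.87 RPKM with 1 library left out and 15.4 when values were rescaled, as TPM are, over protein-coding genes, beside 9.97 for all protein-coding genes on that scale. Of 12 pairs, 6 had the first gene lower, also with 1 library left out. Since the libraries were treated as 1 sample, leaving 1 out is no independent check of the members detected or of the pairs. The number of pairs with the first gene lower also depends on the order in which each pair was written. A change of pseudocount cannot alter which gene of a pair is lower, so it was no check of this count. With pseudogene RPKM added as listed, uncorrected for the length of the loci, the number was 7, since GLDC over GCSH reversed to -1.14. In alternatives chosen after seeing the data, the variance between libraries was 1.03 and 1.15 times that of counting at minimums of 20 and 200 reads, and the share of detected members with CpG of 0.6 or more was 63.0 to 77.8% with other starts, and 11.1 to 22.2% for members under the floor. No paired analysis was possible because the series has 1 group. At this depth 0.5 RPKM on 2000 bp is 25.2 reads in library 1, so a gene under the floor may still be transcribed.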
